A study of Rattus norvegicus with 12 samples.

Results

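The transcriptional response to the α1-adrenergic agonist phenylephrine (PE) that remained in the presence of THZ1 was measured by comparing the 3 libraries treated with PE + THZ1 with the 3 libraries treated with THZ1 alone, which are 6 of the 12 libraries of the series. All libraries came from NRVM, heart muscle cells cultured from the ventricles of Sprague Dawley rat pups 2 to 3 days old, which had been exposed to BrdU to limit other cell types and were kept without serum before treatment. Both groups of the comparison carry THZ1 at 10 nM, and they differ by PE at 100 µM. The other 6 libraries, 3 at baseline (vehicle) and 3 with PE at 100 µM and no THZ1, served as the reference PE response and share no library with the main comparison. Labels and methods give 48 h of treatment, whereas the names of 6 table columns, those with PE, give 24 h. Nothing in the labels says whether libraries of a group came from separate cell preparations, so p-values measure the spread between these libraries, which may be technical.

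PE activates Gq-coupled α1-adrenergic receptors, which raise intracellular calcium and protein kinase C activity, and in cardiac myocytes this signal leads to growth of the cell and to re-expression of genes of the fetal heart. CDK7, the kinase of the general transcription factor TFIIH, phosphorylates the C-terminal domain of RNA polymerase II (Pol II) and activates other cyclin-dependent kinases. THZ1 binds CDK7 covalently and also inhibits CDK12 and CDK13. The comparison of PE + THZ1 with THZ1 alone therefore asks which part of the adrenergic response is left with THZ1 in both groups. Inhibition of these kinases may have been partial at the dose used, and its degree was not tested in these libraries. The remaining response was thus not shown to be independent of these kinases.

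Values are normalized counts, in which the reads of each gene were divided by the library's size factor. The 15920 genes of the table are listed by Ensembl identifier, and 0 of them could be paired with a symbol through the 47357 entries of the reference table used here. Genes are therefore described by their response, level and deposited cluster, with 4 identifiers given as examples. The pathway lists and cell type markers could not be applied, the labelled cell type was not checked against markers, and no sequence is shown. Reads counted on genes were recovered from the steps of the values and ranged from 33929154 to 34730817 per library with PE + THZ1, from 30458862 to 44996532 with THZ1 alone, from 34725954 to 41105955 with PE and from 32777334 to 45885754 at baseline. Tests by limma used log2(normalized count + 1) of the 14312 genes with a mean of at least 10 over the 12 libraries, and a gene was called at a Benjamini-Hochberg adjusted p under 0.05. For genes of low level, this scale makes changes look smaller than they are. One library stood apart, namely baseline replicate 2, at a Euclidean distance of 37.8 and 39.4 from the other baseline libraries, which were 29.4 apart. It belongs to the reference response, so the main results that rest on that response are also given without it. It also enters the tests under THZ1 through the variance, as all 12 libraries were fitted together. In bulk libraries, a change in the number of cells of a type and a change in RNA per cell cannot be told apart.

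Under THZ1, PE raised 1809 genes (12.6% of those tested) and lowered 1668 (11.7%), a total of 3477 (24.3%) by limma with adjustment over all genes tested. The raised genes had a median log2 change of 0.32 with a median standard error of 0.07. The lowered genes had a median absolute change of 0.27 with a standard error of 0.06. Large changes were few, since 160 genes (1.12%) passed the test with a change of at least 2-fold, 123 of them raised and 37 lowered. A change of at least 4-fold was reached by 3 raised and 2 lowered genes, and the largest absolute log2 changes were 2.29 among raised and 2.27 among lowered genes. The median change over all genes tested was -0.01. edgeR's quasi-likelihood test on the recovered reads called 3529 genes and the DESeq2 Wald test called 3271. The count fell to 2899 with equal library totals and rose to 4715 when these 6 libraries were fitted alone. Without baseline replicate 2, which enters these tests through the variance, it was 4436, with 2210 raised and 2226 lowered.

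**Figure D1:**
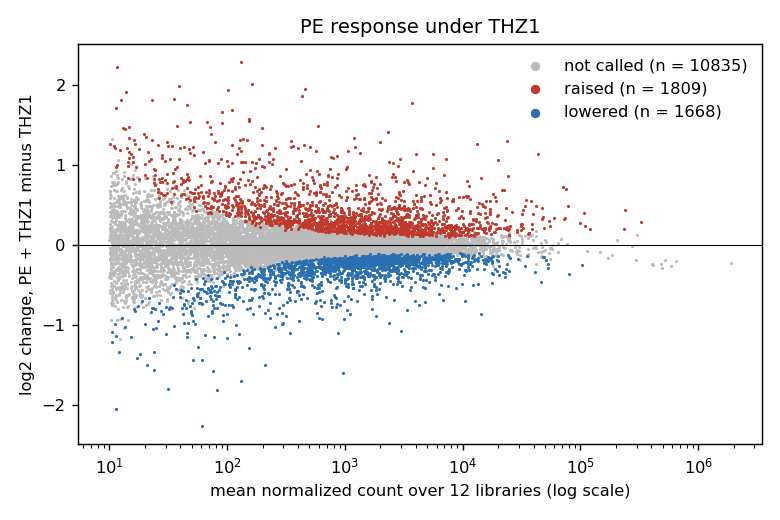
Each point is a gene, with its mean normalized count over the 12 libraries on the horizontal log axis and its log2 change between PE + THZ1 and THZ1 alone on the vertical axis. The 1809 raised genes (red) and 1668 lowered genes (blue) lie at all levels, and the grey band of genes that were not called is widest among genes of low level.

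The share of genes called differed with their level. Genes were divided by level into 4 groups of 3578. In the lowest group, with means from 10.0 to 128 normalized counts, the median standard error was 0.22 and 11.2% were called, with 235 raised and 166 lowered. In the highest group, with means of at least 1945, the standard error was 0.05 and 34.7% were called, with 659 raised and 582 lowered. The called genes of the lowest group had a median absolute log2 change of 0.72, against 0.22 in the highest. The median change called in the highest group was about as large as 1 median standard error in the lowest. Genes changed at least 2-fold had median levels of 90.6 (raised) and 45.9 (lowered) normalized counts, against 636 for all genes tested.

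The PE + THZ1 libraries lay apart from those with THZ1 alone. Over all genes tested, the Euclidean distance between a PE + THZ1 and a THZ1 library was 38.6 to 43.5 in log2(normalized count + 1) over 9 pairs. Libraries of the same group were 26.1 to 29.3 apart with PE + THZ1 and 25.2 to 28.5 apart with THZ1 alone, so the ranges within and between these groups did not overlap. Without THZ1, PE and baseline libraries were 56.3 to 72.7 apart, where the lowest distance exceeded the highest of the comparison under THZ1. Summed normalized counts differed little between the groups compared, with 33.8 ± 0.588 M (SD, n = 3) with PE + THZ1 and 34.2 ± 0.470 M with THZ1 alone. They were 40.4 ± 0.131 M with PE and 38.0 ± 1.92 M at baseline. The genes that PE raised under THZ1 held 16.0 ± 0.104% of the library total with THZ1 alone and 20.0 ± 0.0935% with PE + THZ1, while the lowered genes held 14.4 ± 0.176% and 12.2 ± 0.324%. As these genes were called from the same 6 libraries, the directions of both shares follow from the choice, and they describe its size only.

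For reference, PE without THZ1 changed 7899 genes (55.2% of those tested), with 4304 raised (30.1%) and 3595 lowered (25.1%), and 778 of them (5.44%) changed at least 2-fold. With equal library totals 37.4% of the called genes were raised, against 54.5% with the deposited scaling. When baseline replicate 2 was left out, 8687 genes were called. Of the 4304 genes that PE raised without THZ1, 1259 (29.3%) were also raised under THZ1, and these made up 69.6% of the genes raised under THZ1. Of the 3595 lowered genes, 1034 (28.8%) were also lowered under THZ1, which was 62.0% of those lowered under THZ1. The shares of 29.3% and 28.8% stand against 12.6% raised and 11.7% lowered under THZ1 among all genes tested. Those of 69.6% and 62.0% stand against 30.1% raised and 25.1% lowered without THZ1. These shares over all genes are not matched for level, and the share called under THZ1 ran from 11.2% in the lowest level group to 34.7% in the highest. Both tests also use the same variance per gene, so their calls are not separate. Without baseline replicate 2, 1506 genes were raised and 1335 lowered in both comparisons. As a description, the changes without and under THZ1 had a Pearson r of 0.54 and a Spearman rho of 0.45 across the 14312 genes, which were measured in the same libraries and do not count as replicates. Leaving out baseline replicate 2 gave 0.53 and 0.44.

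**Figure D2:**
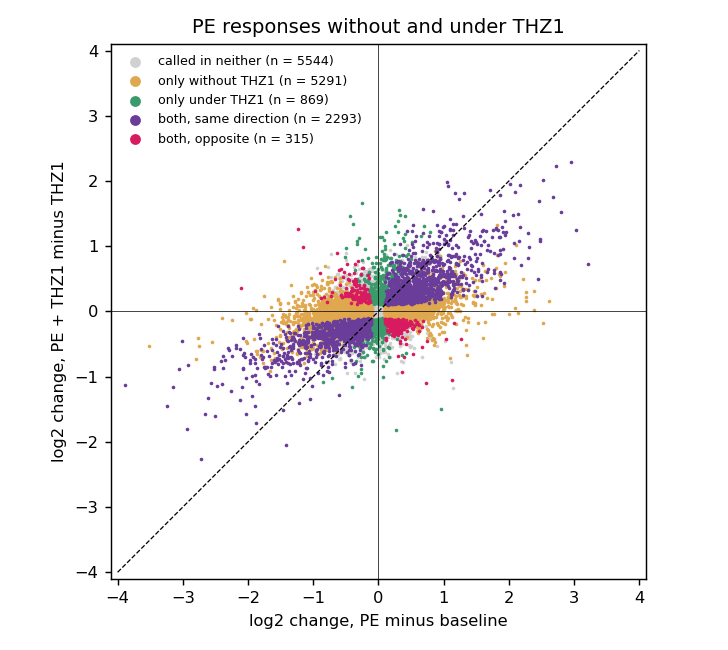
Each point is a gene, with its log2 change between PE and baseline on the horizontal axis and between PE + THZ1 and THZ1 alone on the vertical axis, and the dashed line marks equal changes. Of all genes, 2293 were called in both comparisons in the same direction (purple), 5291 only without THZ1 (orange), 869 only under THZ1 (green) and 315 in both with opposite directions (pink). The genes raised at least 2-fold without THZ1, at the right, had median changes of 1.29 without and 0.54 under THZ1.

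The PE response under THZ1 was compared directly with that without THZ1 by the interaction term of the same fit, which is the change under THZ1 minus the change without it. It passed the test for 4603 genes (32.2%), of which 1987 were positive (13.9%) and 2616 negative (18.3%), and for 364 (2.54%) it reached at least 1 in absolute log2 value. The number was 6112 without baseline replicate 2. With equal library totals 73.2% of the called differences were positive, against 43.2% with the deposited scaling, and the median difference over all genes moved from -0.02 to 0.09, so the split between positive and negative depends on the scaling. Among the 4304 genes PE raised without THZ1, the rise was smaller under THZ1 for 2330 (54.1%) and larger for 47. Among the 3595 lowered genes, the fall was smaller under THZ1 for 1701 (47.3%) and larger for 17. As the difference contains the change by which these genes were chosen, part of this imbalance follows from the choice. Over 12 settings with all libraries kept, the one used here included, the share with a smaller rise ran from 34.6% (equal totals) to 57.0%, and that with a smaller fall from 45.0% to 54.8%. Single libraries moved the shares further, to 65.3% of 4630 raised and 58.4% of 4057 lowered genes without baseline replicate 2, and to 45.8% and 40.7% without THZ1 replicate 2.

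The genes raised by PE without THZ1 fell into several groups under THZ1. Of the 1259 that were still raised, the difference between the responses was not called for 755, while 457 had a smaller and 47 a larger rise under THZ1. The median rise of the 1259 genes was 0.52 without and 0.34 under THZ1 on the log2 scale. A further 2855 were not called under THZ1. For 1683 of these the rise was smaller than without THZ1 by the test of the difference. For the other 1172 neither the change under THZ1 nor the difference passed, so they could not be assigned at this precision. The remaining 190 genes (4.41%, against 11.7% of all genes tested) were lowered under THZ1. Without baseline replicate 2, 1506 of 4630 genes (32.5%) were still raised, with 697 smaller and 52 larger rises and 757 differences not called. The genes still raised had a median mean level of 1319 normalized counts, against 1059 for those not called, with the same median standard error of 0.06.

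Genes lowered by PE showed a similar division. Of the 1034 that were still lowered under THZ1, the difference was not called for 602, whereas 415 had a smaller and 17 a larger fall. Their median fall was -0.50 without and -0.31 under THZ1. Of the 2436 that were not called under THZ1, 1161 had a smaller fall by the test of the difference and 1275 could not be assigned. The other 125 genes (3.48%, against 12.6% of all genes tested) were raised under THZ1. Without baseline replicate 2, 1335 of 4057 genes (32.9%) were still lowered, with 630 smaller and 23 larger falls and 682 differences not called. The genes not called had a median level of 455 normalized counts and a standard error of 0.08, against 1069 and 0.06 for those still lowered, so the precision of these sets differed.

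Genes with a large PE response without THZ1 kept part of it. The 310 genes raised 2-fold to 4-fold by PE without THZ1 (log2 change of 1 to 2) had a median log2 change of 1.24 without and 0.52 under THZ1, and 182 of them (58.7%) were called as raised under THZ1. The 36 genes raised more than that had medians of 2.28 and 1.04, and 24 were called. Of the 2941 genes whose rise was below 0.5, 600 (20.4%) were called as raised under THZ1, against 12.6% of all genes tested. The medians of this group were 0.28 and 0.05. On the side of lowered genes, the 384 with a change of -1 to -2 had medians of -1.25 without and -0.39 under THZ1. Of these, 177 (46.1%) were called as lowered under THZ1, against 11.7% of all genes tested. The 48 genes lowered further had medians of -2.39 and -0.75, with 37 (77.1%) called. Without baseline replicate 2, the group raised 2-fold to 4-fold held 400 genes, of which 54.3% were called under THZ1, with a median of 0.44 there, and the lowered group held 465, with 43.2% and -0.33. The log2 changes under THZ1 come from other libraries than the changes that set this grouping, and the latter are given as a description. The calls are less separate, since the tests of both comparisons use 1 variance per gene estimated over all 12 libraries.

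**Figure D3:**
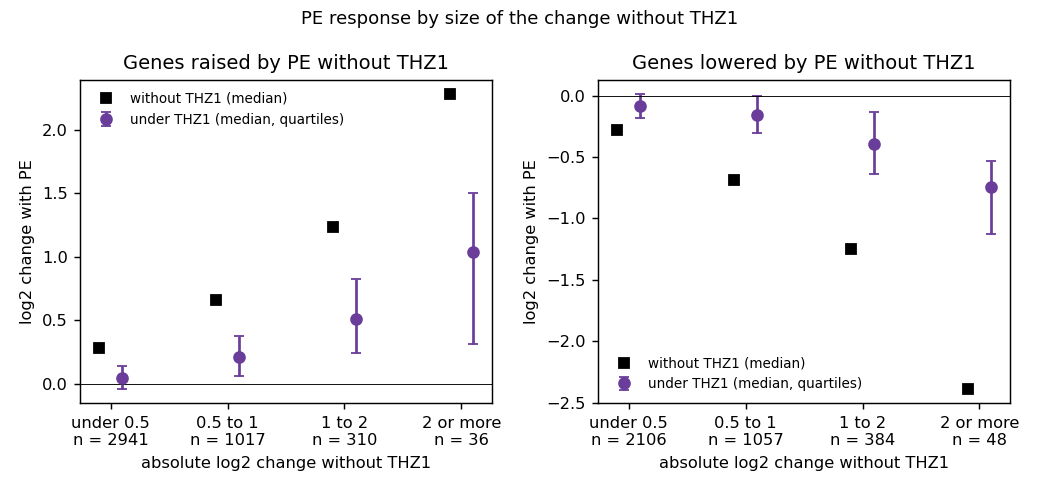
Genes raised (left) or lowered (right) by PE without THZ1 are grouped by their absolute log2 change without THZ1 on the horizontal axis, with the number of genes below each group. Black squares are the median log2 change without THZ1 and purple circles the median under THZ1 with its quartiles, and the purple circles move away from 0 as the group's change grows, from 0.05 to 1.04 for raised and from -0.08 to -0.75 for lowered genes.

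All genes changed at least 2-fold by PE without THZ1 were followed as 2 sets, of 346 raised and 432 lowered genes. Of the raised genes, 206 (59.5%, against 12.6% of all genes tested) were still raised under THZ1, 4 were lowered and 136 were not called. Of the lowered genes, 214 (49.5%, against 11.7% of all genes tested) were still lowered, 3 were raised and 215 were not called. The difference of the responses was called as a smaller change under THZ1 for 216 of the raised and 314 of the lowered genes, and as a larger one for 0 of either by limma, edgeR and DESeq2. At an unadjusted p under 0.05, limma found 3 larger rises and 0 larger falls. Here too, the difference contains the change by which the sets were chosen. Over the same 12 settings, the smaller rises numbered 177 to 233 with up to 2 larger ones, and the smaller falls 238 to 333 with 0 larger ones. A minimum mean of 50 left 229 and 258 genes of these sets. With baseline replicate 2 left out, 266 rises and 340 falls were smaller under THZ1.

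The levels of these sets describe where each response started and ended with the deposited scaling. Positions of the THZ1 groups against baseline depend on that scaling. Summed normalized counts were 34.2 M with THZ1 alone and 33.8 M with PE + THZ1, against 38.0 M at baseline. The part of the scaling in these positions was not tested. Medians over the 346 raised genes are given relative to the baseline mean, on the log2 scale. The 3 libraries with THZ1 alone stood at -0.53, -0.52 and -0.50. The 3 with PE + THZ1 stood at -0.03, 0.004 and 0.10. The PE + THZ1 libraries lay above those with THZ1 alone without overlap. The baseline libraries stood at -0.12, 0.21 and -0.06, so the PE + THZ1 libraries were above baseline replicates 1 and 3 and below replicate 2 alone. The PE libraries stood at 1.31, 1.28 and 1.33. Against the mean of baseline replicates 1 and 3, the PE + THZ1 libraries stood at 0.05, 0.13 and 0.23 and those with THZ1 alone at -0.45 each. By library, the median rise over the THZ1 mean was 0.49, 0.54 and 0.60, with an SD of 0.06 over the 3 libraries.

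For the 432 lowered genes, the libraries with THZ1 alone stood at -0.09, -0.06 and -0.06, where baseline had 0.07, -0.11 and 0.04. The PE + THZ1 libraries stood at -0.43, -0.50 and -0.47, and the PE libraries at -1.34, -1.30 and -1.39. Against the mean of baseline replicates 1 and 3, the libraries with THZ1 alone stood at -0.13, -0.10 and -0.11. They were thus below these 2 baseline libraries, at 0.02 and -0.02. The PE + THZ1 libraries stood at -0.51, -0.57 and -0.53 on that scale. Under THZ1 the libraries with and without PE did not overlap, while the distance between PE and baseline follows from how the genes were chosen. The median fall below the THZ1 mean was -0.39, -0.43 and -0.46 by library. Baseline replicate 2 stood on the side of the PE libraries in both sets, at 0.21 and -0.11. The part of this library in the reference response was not tested beyond leaving it out. The log2 changes under THZ1 do not use it, but their tests do, through the variance estimated over all 12 libraries.

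**Figure D4:**
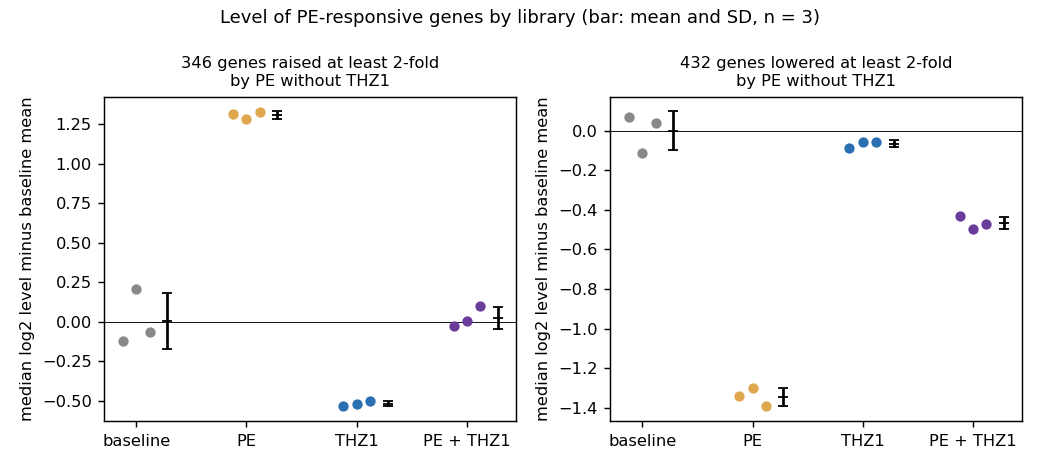
Each point is a library, and its height is the median log2 level of the 346 genes raised (left) or 432 lowered (right) at least 2-fold by PE without THZ1, minus the baseline mean. Bars are the mean and SD over 3 libraries, and on the left the PE + THZ1 libraries, from -0.03 to 0.10, lie above the THZ1 libraries, from -0.53 to -0.50, and far below the PE libraries.

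Genes that changed at least 2-fold under THZ1 were also viewed from that side. Of the 123 raised genes, 97 were raised without THZ1 as well (against 30.1% of all genes tested), 25 were not called there and 1 was lowered. They had median rises of 1.22 under and 1.09 without THZ1. The difference of the responses was not called for 80 of them, and it was called as larger under THZ1 for 22 and as smaller for 21. Of the 37 lowered genes, 30 were lowered without THZ1 (against 25.1% of all genes tested), 5 were not called there and 2 were raised. Their median falls were -1.22 under and -1.88 without THZ1. The difference was not called for 21, and it was called as larger under THZ1 for 4 and as smaller for 12. As the difference contains the change by which both sets were chosen, the choice favours larger changes under THZ1. Differences that were not called do not show that the response was kept in full. Passing 2-fold in both comparisons were 71 raised genes, which is 20.5% of those raised 2-fold without THZ1 and 57.7% of those raised 2-fold under it. Among lowered genes 29 did so, 6.71% and 78.4% of the respective lists. Of all genes tested, 1.12% changed at least 2-fold under THZ1 and 5.44% without it, in either direction.

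The identifier with the largest rise under THZ1, among genes with a mean of at least 100 normalized counts and no overlap between the groups, was ENSRNOG00000047300. It had 20.5, 10.5 and 13.4 normalized counts in the libraries with THZ1 alone and 77.8, 68.3 and 75.1 with PE + THZ1. This rise was 2.29 on the log2 scale, or 4.88-fold, with a standard error of 0.21 (adjusted p = 6.7e-07 from limma). At baseline it had 49.8 ± 14.8 normalized counts (SD, n = 3) and with PE 382 ± 44.4, which is a rise of 2.95 on the log2 scale (adjusted p = 4.2e-09 from limma). The difference of the responses, -0.66 (standard error 0.30), did not pass the test (adjusted p = 0.11 from limma). Without baseline replicate 2 it was -0.89 and passed (adjusted p = 0.012 from limma). THZ1 alone lowered this gene against baseline by a log2 change of -1.69 (adjusted p = 4.4e-06 from limma).

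The second rise was that of ENSRNOG00000032626, with 28.5, 34.6 and 41.1 normalized counts with THZ1 alone and 132, 126 and 174 when PE was added. PE raised it by 2.02 on the log2 scale (standard error 0.19, adjusted p = 9.5e-07 from limma), against 2.53 without THZ1, where the means were 71.4 ± 23.2 at baseline and 404 ± 50.3 with PE (SD, n = 3). The difference of -0.51 did not pass (adjusted p = 0.17 from limma), but did without baseline replicate 2, at -0.75 (adjusted p = 0.011 from limma). Both genes are in deposited cluster 2. In both, each PE + THZ1 library was above each baseline library and below each PE library.

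ENSRNOG00000037632 had the largest fall by the same rule, from 176, 222 and 226 normalized counts with THZ1 alone to 64.0, 54.8 and 70.0 when PE was added, or by -1.70 on the log2 scale (standard error 0.15; adjusted p = 3.1e-07 from limma). Without THZ1 it fell from 197 ± 35.3 at baseline to 52.1 ± 4.92 with PE (SD, n = 3), a change of -1.88 (adjusted p = 1.2e-08 from limma). The difference of 0.18 had a standard error of 0.21 (adjusted p = 0.55 from limma), and THZ1 alone gave 0.09 against baseline (adjusted p = 0.65 from limma). The PE + THZ1 and PE libraries of this gene overlapped.

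ENSRNOG00000003537 fell from 1174, 1289 and 1219 normalized counts with THZ1 alone to 425, 389 and 399 with PE + THZ1, which is -1.60 on the log2 scale (standard error 0.09; adjusted p = 3.7e-09 from limma). Without THZ1 it fell from 1861 ± 229 to 328 ± 43.2 (SD, n = 3), a change of -2.50 (adjusted p = 2.2e-12 from limma). Here the fall was smaller under THZ1, with a difference of 0.90 (standard error 0.13, adjusted p = 5.7e-05 from limma). THZ1 alone lowered this gene by -0.59 against baseline (adjusted p = 3.9e-05 from limma), so the fall under THZ1 started from a lower level and ended above the PE libraries.

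**Figure D5:**
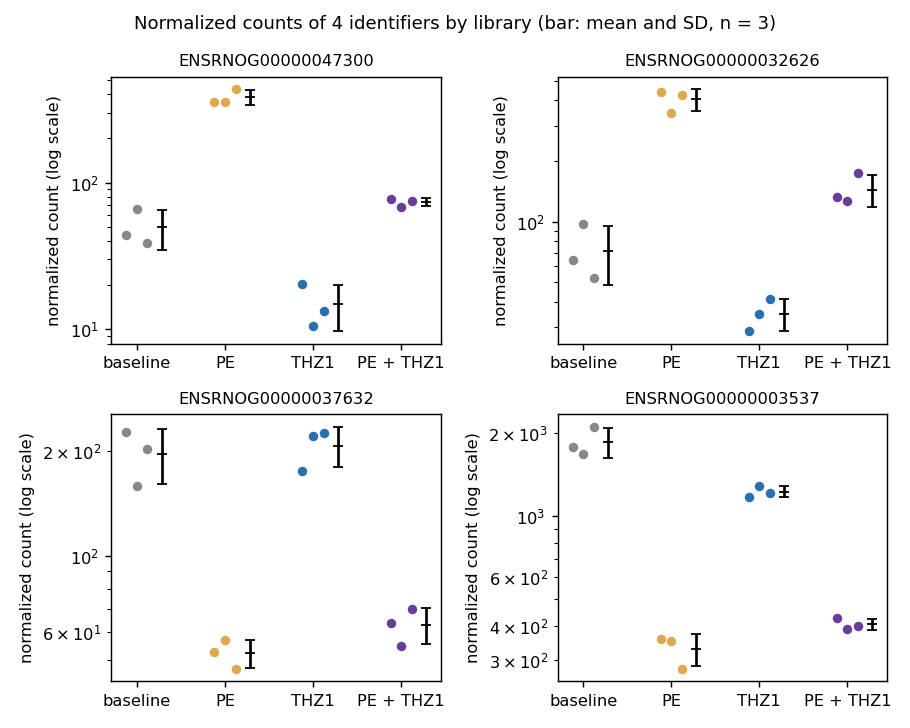
Each panel is 1 identifier, each point is a library with its normalized count on a log axis, and bars are the mean and SD over 3 libraries. In the upper panels the PE + THZ1 libraries lie above the THZ1 libraries and below the PE libraries, and in the lower panels they lie near the level with PE.

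Some genes were called under THZ1 but not without it, which does not show that they lacked a response there. Of the genes called under THZ1, 756 had an unadjusted p of at least 0.05 without it, with 368 raised and 388 lowered. Their median absolute log2 change was 0.26 under and 0.07 without THZ1, the largest change under THZ1 was 1.82, and 26 reached 2-fold there. The low median without THZ1 follows from the choice. For 321 of the 756 genes the difference of the responses passed the test. For the others it did not, so their responses were not shown to differ. There were 993 such genes without baseline replicate 2, 454 of them with a difference that passed. A further 315 genes were called in both comparisons with opposite directions. Of these, 190 were raised without THZ1 (median 0.26) and lowered under it (median -0.20), and 125 were lowered without (median -0.32) and raised under it (median 0.26). The 190 were 4.41% of the genes raised without THZ1, below the 11.7% of all genes tested that were lowered under it. The 125 were 3.48% of the genes lowered without THZ1, below the 12.6% of all genes tested that were raised under it. The difference was called for all of these 315, and 2 of them changed at least 2-fold each way. As changes of opposite direction add up in the difference, its calls here largely follow from the choice. The number of genes with opposite directions depended on single libraries, with 504 without baseline replicate 2, 206 without THZ1 replicate 2 and 209 without THZ1 replicate 3.

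The authors' deposited table puts each gene in 1 of 6 clusters made from these same 12 libraries, so the clusters describe the response and are no test of it. Among all genes tested, 12.6% were raised under THZ1 and 30.1% without it. Cluster numbers here are those of the table and appear to differ from those in the paper. There, cluster 5 holds genes induced by PE and suppressed by THZ1, and cluster 2 genes whose fall with PE was attenuated. In the table, 76.1% of the tested genes of cluster 2 were raised and 59.6% of those of cluster 5 lowered by PE without THZ1. Cluster 4 had the most even direction under THZ1, with 519 of its 1331 tested genes raised (39.0%), 0 lowered and a median log2 change of 0.17. Without THZ1, 889 of these genes (66.8%) were raised, and 396 were raised in both comparisons. At an unadjusted p under 0.05, limma also found 0 lowered genes in this cluster, while edgeR and DESeq2 found 1 each, and 0 after adjustment. Cluster 2, with 24.7% of the genes tested, held the largest number of raised genes under THZ1, 847 of 3534 (24.0%), against 2690 (76.1%) raised without THZ1. In this cluster the difference was negative for 1728 genes and positive for 26. The median change of its genes was 0.34 without and 0.07 under THZ1, and 77 of the 123 genes raised at least 2-fold under THZ1 belonged to it.

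The genes lowered under THZ1 were spread over more clusters. Cluster 5 had 374 of 1915 genes lowered (19.5%) against 1141 (59.6%) without THZ1, and median changes of -0.09 under and -0.30 without. In cluster 3, 369 of 2195 genes (16.8%) were lowered under THZ1 and 898 (40.9%) without. Among all genes tested 11.7% were lowered under THZ1 and 25.1% without it. Cluster 1, with 32.1% of the genes tested, had 670 of 4589 lowered (14.6%), which is 40.2% of all genes lowered under THZ1, beside 293 raised ones. Cluster 6, with 748 genes tested, had 95 lowered (12.7%) and 15 raised under THZ1, where the lowered share is near that of all genes, and 106 raised and 14 lowered without it. Its median change was -0.10 under and 0.08 without THZ1. When baseline replicate 2 was left out, the counts without THZ1 were 170 raised in cluster 6, 1158 lowered in cluster 3, 1237 lowered in cluster 5, 2741 raised in cluster 2 and 936 raised in cluster 4.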

How the data were processed

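Libraries were grouped by the sample titles. The deposited signal is a normalized count: by the methods and the submitters' processing notes, the authors aligned reads to rn5 with TopHat2 2.1.1, counted them with HTSeq using strand and divided them by DESeq2 size factors, all rat samples together. A column without a header holds the authors' cluster of each gene. All 12 libraries were fitted with limma 3.58.1 in R 4.3.3 (4 group means, prior variance following expression, two-sided tests). Of the values, 100% were whole reads within 0.01, and edgeR 4.0.16 and DESeq2 1.42.0 were run on those reads. The fit was tested on simulated data.

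The members and lists were chosen with earlier results of these data known. The rule for genes to name required a symbol. As 0 identifiers had one, the 2 largest rises and 2 largest falls with a mean of at least 100 and no overlap between groups are printed, and the parts of the rule on named genes, lists, differences and opposite signs were not used. Replicate numbers were treated as unpaired. Tables and figures used Python 3.11.15, numpy 2.4.6, pandas 2.3.3, scipy 1.17.1 and matplotlib 3.10.9. Alternatives were other pseudocounts (0.5 and 5), filters, scalings, tools, a replicate block and each library left out.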

Additional observations from a re-analysis of the deposited data

Results flagged for a closer look

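The difference between the PE responses with and without THZ1 passed the test of the interaction term for 4603 genes (limma, adjusted p under 0.05), which is what brings it here. The same test passed for ENSRNOG00000003537, where the log2 difference of 0.90 is a fall with PE that was smaller under THZ1. Groups of 3 libraries were too small to look for single outlying values.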

How the results depend on the processing

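With all libraries kept and no minimum change, 12 alternatives gave 2899 to 4715 genes called under THZ1 and 6887 to 8071 without THZ1, and the 11 that fit the difference gave 4014 to 4885. Leaving out each library in turn gave 2561 to 4436, 6964 to 8687 and 3767 to 6112, and 206 to 504 genes with opposite directions. Equal library totals left 2803 genes raised by PE without THZ1 and 1074 negative differences, which follows from totals that differ between groups. With a pseudocount of 5 the median change under THZ1 of the genes raised 2-fold without it was 0.47, since a larger pseudocount shrinks changes of low genes. A minimum absolute log2 change of 1, which selects by construction, left 160 genes under THZ1 (123 raised, 37 lowered), 778 without (346 and 432), 364 differences (235 positive, 129 negative), 71 raised and 29 lowered in both, and 2 with opposite directions.

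With the replicate number as a block, 3644 genes were called under THZ1, of which 3422 were also called without the block. Deviations from the group means of same-numbered PE + THZ1 and THZ1 libraries had Pearson r from -0.04 to 0.07 over 3 pairs, and 0 of 12 libraries correlated best with their own number in every other group, so the numbers were not taken as pairs. For the 4 identifiers, 280 of 284 values under alternatives kept their direction and side of the threshold, and the other 4 were differences of the 2 raised genes that passed with a pseudocount of 5 or without 1 library. Genes of low level had larger standard errors, and the part of sequencing depth in this was not tested.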
